A study of Homo sapiens with 2 samples.

Results

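The IGF and insulin receptor axis was taken as 10 genes: the ligands IGF1 and IGF2, the receptors IGF1R, INSR and IGF2R, the receptor substrates IRS1 and IRS2, and the binding proteins IGFBP2, IGFBP3 and IGFBP5. Its members on the array were the 32 probe sets, of 54675 in all and 41097 named by 1 gene symbol, whose symbol in the platform annotation is one of these. They cover 9 of the 10 genes, since no probe set carried IGF2 as its only symbol. The arrays compared C4-2B-MDVR, a human prostate cancer line selected from C4-2B by prolonged exposure to the antiandrogen enzalutamide, with C4-2B, its enzalutamide-sensitive parent. Both lines grew untreated in the same serum-containing medium, so both were exposed to the IGFs and insulin of serum, and the series asks which genes underlie the resistance. Each line was measured on 1 array, so no difference could be tested against a spread between replicates, and every value below describes these 2 arrays. Labels of the resistant sample conflict: 3 fields call it C4-2B-MDVR, and its description calls it TaxR, a docetaxel-resistant line. It was taken as C4-2B-MDVR, as its cell line field has it. Whether the resistant line is 1 clone is not given in the sources used here.

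IGF1 and IGF2 are secreted peptide hormones related to insulin. They activate IGF1R, a receptor tyrosine kinase, and insulin activates the closely related INSR, and both receptors signal through the docking proteins IRS1 and IRS2 to PI3 kinase, AKT and mTOR. IGF2R binds IGF2 and carries it to lysosomes, and the IGFBPs hold IGFs in the extracellular fluid and limit or prolong their access to the receptor. In the prostate the axis is known as a growth and survival pathway that acts alongside androgen signalling.

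A value is a deposited intensity on a linear scale, and a difference is the log2 of the C4-2B-MDVR value minus that of the C4-2B value. A probe set counted as above the floor when its brighter value reached the median of that array, which was 43.5 for C4-2B-MDVR and 41.9 for C4-2B. Where the dimmer value was under the floor of its array, the difference is the measured one and a bound against that floor is given beside it. The 9 listed markers of prostate luminal epithelium with a probe set, among them HOXB13, KRT8, KRT18 and EPCAM, were at or above the floor on both arrays, with a summed intensity of 13712 in C4-2B-MDVR and 16662 in C4-2B. Of the 9, SLC45A3 was 2-fold or more lower, at 102 in C4-2B-MDVR and 1091 in C4-2B, and STEAP2 was at −0.90. The leukocyte gene PTPRC, the endothelial gene CDH5, the fibroblast genes COL1A2, COL3A1 and LUM and the hepatocyte gene ALB were under it on both. The fibroblast gene COL1A1 was above it, at 217 in C4-2B-MDVR and 255 in C4-2B. Of the listed markers with a probe set, 3 of 6 fibroblast (COL1A1, DCN, PDGFRB) and 2 of 3 endothelial genes (PECAM1, VWF) reached the floor on both arrays. So did 1 of 3 leukocyte (CD3E, 4 listed) and 1 of 3 hepatocyte genes (APOA1), and no further one did on either. Over all markers of each type with a probe set, the summed intensities were 388, 158, 109 and 128 in C4-2B-MDVR. In C4-2B they were 419, 153, 105 and 122, and the part of these cell types in the results was not tested.

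The array labelled C4-2B-MDVR had far lower IGF1 and IGF1R and higher IGFBP3, while INSR, IGF2R, IRS2, IGFBP2 and IGFBP5 lay within 2-fold of C4-2B. Of the 32 probe sets 20 were above the floor and 12 were under it on both arrays. Among the 20, 2 were 2-fold or more higher, both of IGFBP3, and 7 were 2-fold or more lower, 4 of IGF1 and 3 of IGF1R. Of the 7, 209541_at and 209540_at of IGF1 and all 3 of IGF1R passed the filter only through their C4-2B values. By bound 6 were 2-fold or more lower, and the shares that follow are of measured differences. Over all 24087 named probe sets above the floor, 2.75% were 2-fold or more higher and 4.06% were 2-fold or more lower. At 4-fold, 2 member probe sets were higher and 5 lower, where the shares over all named probe sets were 0.673% and 0.727%. The members were chosen with earlier results of these data known, so counts set beside these shares are no test. Several probe sets measured the same gene, so the 9 calls at 2-fold stand for 3 genes. The median difference of the 20 was −0.19, beside 0.03 over all named probe sets above the floor. IGF1 and IGF1R hold 7 of the 20, and with 1 probe set a gene the member median was 0.13. It was −0.06 when each gene's probe sets were averaged, so no shift of the axis as a whole is read from it. Each array measured the RNA of a whole culture, so fewer cells that express a gene and less RNA per cell cannot be told apart.

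**Figure D1:**
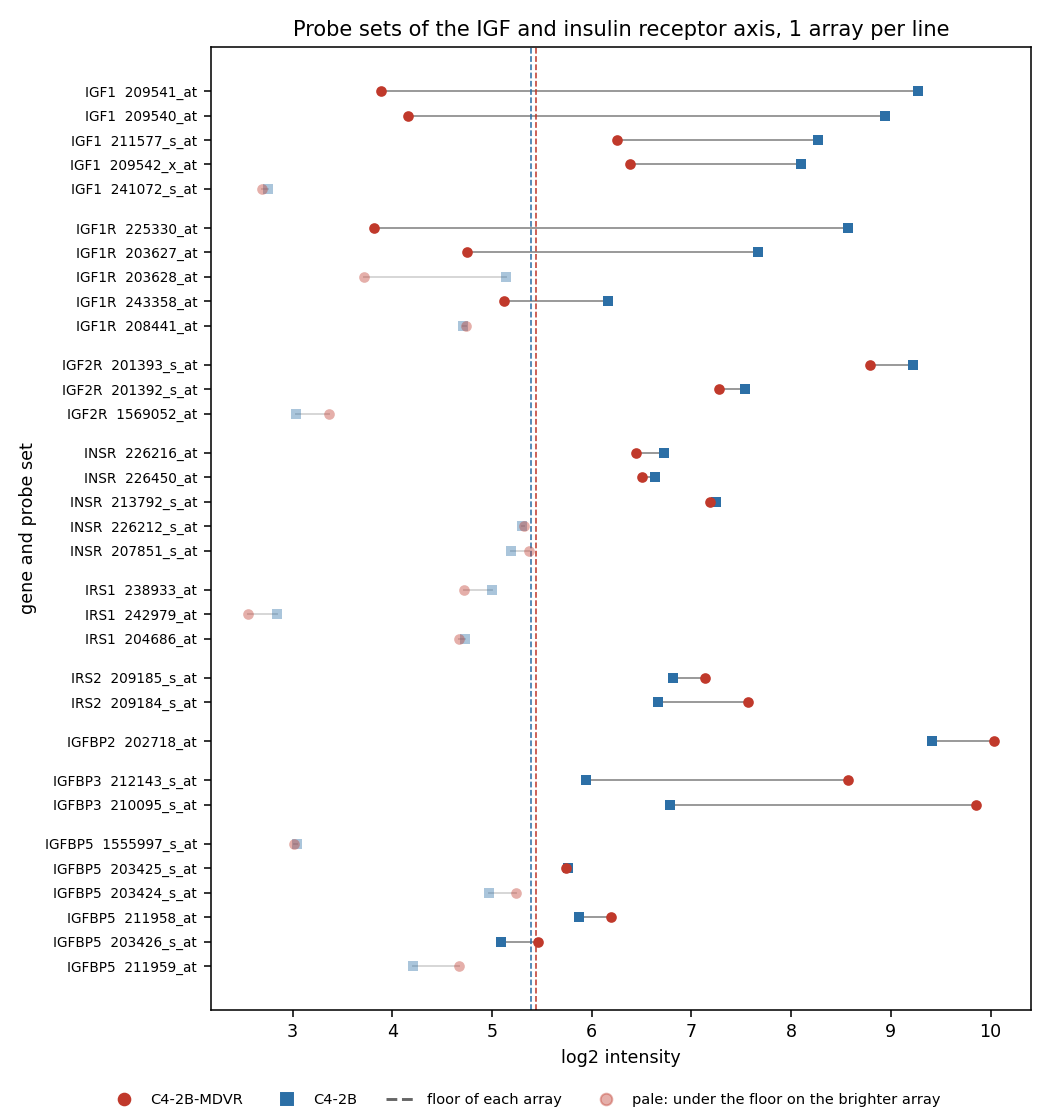
Log2 intensity of each of the 32 member probe sets in C4-2B-MDVR (red circles) and C4-2B (blue squares), 1 array per line, grouped by gene, with the floor of each array as a dashed line and pale points where the brighter value is under its floor. The long bars are those of IGF1 and IGF1R, with C4-2B-MDVR on the left, and of IGFBP3, with C4-2B-MDVR on the right.

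IGF1, the ligand of IGF1R, was lower in C4-2B-MDVR on each of its 4 probe sets above the floor. Probe set 209541_at had an intensity of 14.8 in C4-2B-MDVR, against 616 in C4-2B, a difference of −5.38. Probe set 209540_at had 17.9 in C4-2B-MDVR, against 492 in C4-2B, a difference of −4.78. Neither reached the floor in C4-2B-MDVR, and both passed the filter only through their C4-2B values. Their differences are thus readable as bounds alone, at least 14.2-fold lower and at least 11.3-fold lower. The other pair kept signal above the floor in C4-2B-MDVR. Probe set 211577_s_at had 76.4 in C4-2B-MDVR, against 309 in C4-2B (−2.02), and 209542_x_at had 83.5 in C4-2B-MDVR, against 274 in C4-2B (−1.71). The 4 probe sets thus shared a direction but not a size. In the maker's naming the endings _s_at and _x_at mark probes shared between transcripts or with other sequences, and the 2 probe sets with the larger differences carry neither. The last of its 5 probe sets, 241072_s_at, was under the floor on both arrays, at 6.47 in C4-2B-MDVR and 6.72 in C4-2B. When the probe set with the highest mean over both arrays stands for the gene, as is common, IGF1 is represented by 211577_s_at, and 97 of 13437 named genes above the floor had a difference that low.

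IGF2, the other IGF ligand, could not be read singly. The 3 probe sets annotated jointly with IGF2 and the read-through gene INS-IGF2 were under the floor on both arrays, with intensities from 20.7 to 40.0 in C4-2B-MDVR and from 26.0 to 38.1 in C4-2B. They are not counted among the members.

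IGF1R, the receptor tyrosine kinase for the IGFs, was lower on each of its 3 probe sets above the floor. Probe set 225330_at had an intensity of 14.1 in C4-2B-MDVR, against 381 in C4-2B, a difference of −4.76 and by bound at least 8.76-fold lower. Probe set 203627_at had 27.0 in C4-2B-MDVR, against 204 in C4-2B, a difference of −2.92 and at least 4.69-fold lower. On 243358_at the values were 34.9 in C4-2B-MDVR and 71.8 in C4-2B (−1.04), and the bound was at least 1.65-fold, short of 2-fold. These 3 were above the floor in C4-2B and below it in C4-2B-MDVR, so none read an IGF1R signal over the floor in the resistant line. Each passed the filter only through its C4-2B value, so the differences are readable as bounds alone. The remaining IGF1R probe sets were under the floor on both arrays, 203628_at with 13.1 in C4-2B-MDVR and 35.4 in C4-2B, and 208441_at with 26.6 in C4-2B-MDVR and 26.2 in C4-2B.

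INSR, the insulin receptor and the nearest relative of IGF1R, was close to equal on both arrays. Its 3 probe sets above the floor had intensities of 145, 90.6 and 86.8 in C4-2B-MDVR, against 152, 99.5 and 106 in C4-2B, with differences of −0.06, −0.13 and −0.29. The other 2 were under the floor on both arrays, at 39.9 and 41.3 in C4-2B-MDVR and 39.4 and 36.6 in C4-2B. IGF2R, the scavenger receptor for IGF2, had 443 in C4-2B-MDVR and 596 in C4-2B on 201393_s_at (−0.43), and 155 in C4-2B-MDVR and 185 in C4-2B on 201392_s_at (−0.25). Its probe set 1569052_at was under the floor on both arrays, at 10.3 in C4-2B-MDVR and 8.21 in C4-2B. Differences as low as −0.43 were found for 16.1% of named probe sets above the floor.

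Of the receptor substrates, IRS1 was under the floor on both arrays on all 3 probe sets, with intensities from 5.87 to 26.3 in C4-2B-MDVR and from 7.16 to 32.1 in C4-2B. IRS2, the other main docking protein of both receptors, was above the floor. Probe set 209184_s_at had 189 in C4-2B-MDVR, against 102 in C4-2B (0.90), and 209185_s_at had 141 in C4-2B-MDVR, against 112 in C4-2B (0.32). Both were brighter in C4-2B-MDVR but within 2-fold, and differences as high as 0.90 were found for 3.34% of named probe sets above the floor.

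IGFBP3, the main IGF carrier of blood plasma, which also restrains growth of prostate cells in culture, was the 1 member with a 2-fold higher value. Probe set 210095_s_at had an intensity of 925 in C4-2B-MDVR, against 110.1 in C4-2B, a difference of 3.07 or 8.40-fold. Probe set 212143_s_at had 380.1 in C4-2B-MDVR, against 61.7 in C4-2B, a difference of 2.62 or 6.16-fold. All 4 values were above the floors, and the probe sets differed by 0.45 on the log2 scale. Of the named probe sets above the floor, 48 were as high as the first and 83 as high as the second. Both IGFBP3 probe sets carry the ending _s_at.

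IGFBP2, which binds both IGFs and is abundant in prostate cancer cells, had 1 probe set, with an intensity of 1048 in C4-2B-MDVR and 683 in C4-2B (0.62), within 2-fold. IGFBP5, a binding protein that attaches to the extracellular matrix, was near the floor. Its 3 probe sets above the floor had 73.0, 44.1 and 53.4 in C4-2B-MDVR, against 58.6, 34.1 and 54.1 in C4-2B, with differences of 0.32, 0.37 (at least 1.05-fold by bound) and −0.02. The other 3 were under the floor on both arrays, from 8.07 to 37.7 in C4-2B-MDVR and from 8.23 to 31.3 in C4-2B. Among genes above the floor, IGFBP2 and IGFBP5 are next to each other in the gene order of chromosome 2. Over the 5 genes with no 2-fold probe set, 11 probe sets were above the floor, with differences from −0.43 to 0.90 and a median of −0.02.

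**Figure D2:**
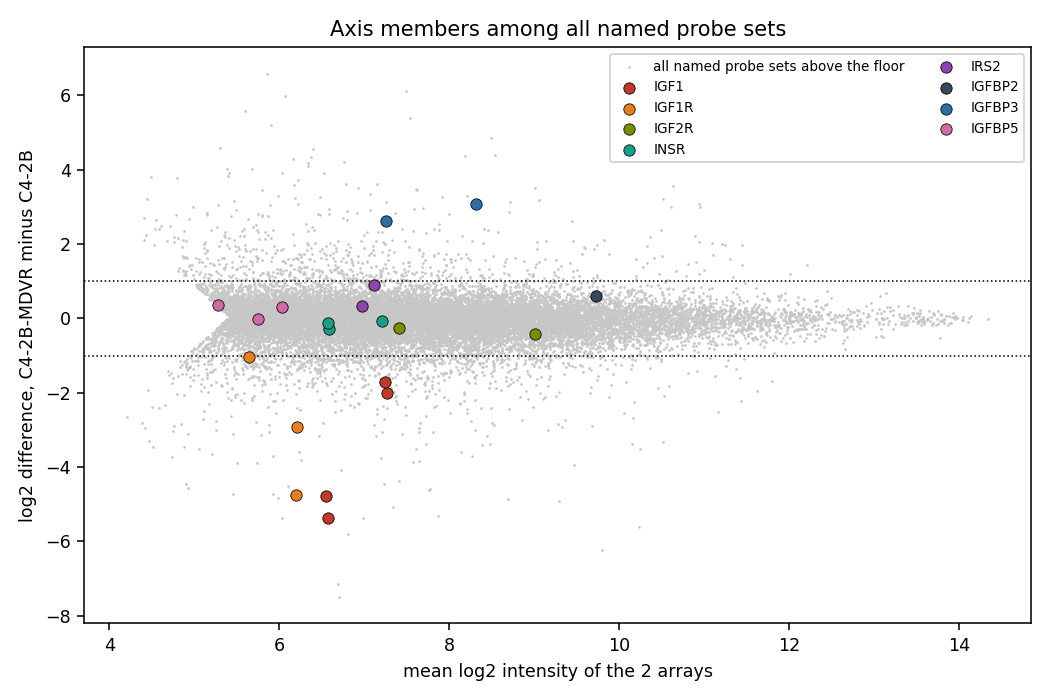
Log2 difference, C4-2B-MDVR minus C4-2B, against the mean log2 intensity of both arrays, for all 24087 named probe sets above the floor (grey) and the 20 member probe sets above it (coloured by gene), with dotted lines at 2-fold. The points of IGF1 and IGF1R lie below the lower dotted line, with 243358_at of IGF1R close to it, those of IGFBP3 lie above the upper one, and the other members lie between the lines.

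The promoters of the 3 genes with 2-fold probe sets are shown with that of INSR, the receptor that stayed within 2-fold, as the 250 bases before the RefSeq gene start (GRCh38.p14), 5′ to 3′ on the gene's strand. Capitals mark matches, on either strand, to 4 motifs: the GC box GGGCGG, the TATA box TATAAA, the androgen receptor motif AGAACA and the forkhead motif GTAAACA, the family that includes the insulin-regulated FOXO factors. For IGF1 the more upstream of its 2 listed starts is given.
IGF1 (chr12:102481748-102481997, minus strand): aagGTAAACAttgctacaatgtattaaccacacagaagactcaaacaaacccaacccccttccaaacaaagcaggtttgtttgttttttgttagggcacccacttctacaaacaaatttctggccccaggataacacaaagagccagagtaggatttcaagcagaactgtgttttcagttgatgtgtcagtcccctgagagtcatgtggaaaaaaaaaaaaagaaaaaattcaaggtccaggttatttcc
IGF1R (chr15:98648289-98648538, plus strand): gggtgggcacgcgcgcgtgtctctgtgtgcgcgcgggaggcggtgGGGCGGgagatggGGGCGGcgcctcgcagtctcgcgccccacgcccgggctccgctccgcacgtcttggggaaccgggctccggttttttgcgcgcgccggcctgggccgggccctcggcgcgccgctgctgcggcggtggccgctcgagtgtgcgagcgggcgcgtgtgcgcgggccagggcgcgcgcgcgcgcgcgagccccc
IGFBP3 (chr7:45921273-45921522, minus strand): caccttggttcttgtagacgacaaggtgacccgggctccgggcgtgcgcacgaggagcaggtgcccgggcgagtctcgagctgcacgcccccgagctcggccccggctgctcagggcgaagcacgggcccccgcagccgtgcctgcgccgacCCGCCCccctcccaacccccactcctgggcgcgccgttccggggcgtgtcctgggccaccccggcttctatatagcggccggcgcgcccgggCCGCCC
INSR (chr19:7294415-7294664, minus strand): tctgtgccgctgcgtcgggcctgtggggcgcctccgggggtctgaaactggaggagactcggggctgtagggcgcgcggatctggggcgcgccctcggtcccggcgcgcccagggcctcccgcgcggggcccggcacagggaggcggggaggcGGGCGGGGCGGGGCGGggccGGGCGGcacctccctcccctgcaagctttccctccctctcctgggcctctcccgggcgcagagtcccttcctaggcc
The IGF1 window held 1 forkhead match and 0 GC boxes, with 39.6% G and C and 0 CpG dinucleotides. The window of the other listed IGF1 start, not shown, held 0 forkhead matches and 0 GC boxes, with 44% G and C and 1 CpG dinucleotide. The windows of IGF1R, IGFBP3 and INSR had 2, 2 and 4 GC boxes, 81.2%, 76% and 78.4% G and C, and 48, 32 and 28 CpG dinucleotides. Overlapping matches were counted singly. None of the 4 windows shown held the TATA box or the androgen receptor motif in these letters. Among 35116 RefSeq promoter windows of the same length, 42.6% held the GC box, 10.7% the TATA box, 12.4% the androgen receptor motif and 2.98% the forkhead motif. The median window had 58% G and C, and the median count of CpG dinucleotides was 11.

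The flanking genes were read in RefSeq gene order, taking the 10 nearest protein-coding genes above the floor on each side. Around IGF1 on chromosome 12, 1 of 20 was 2-fold or more higher (CHST11, 1.62, at least 1.49-fold by bound) and 1 lower (GNPTAB, −1.08), with a median of −0.14. Around IGF1R on chromosome 15, 2 of 20 were lower, MCTP2 (−3.06) and ALDH1A3 (−1.23), 0 were higher, and the median was 0.15. Around IGFBP3 on chromosome 7, ADCY1 (1.01) and GRB10 (1.20) were higher, 0 of 20 were lower, and the median was −0.08. The shares beyond 2-fold over all 13437 named genes above the floor were 3.17% higher and 3.5% lower. The low values of IGF1 and IGF1R and the high one of IGFBP3 were thus not shared by most of their neighbours. IRS2 on chromosome 13 lay among lower genes: 4 of 20 were 2-fold or more lower, among them COL4A2 (−2.55, at least 3.46-fold by bound), the nearest of the 20 on one side, 1 was higher (EFNB2, 1.60), and the median was −0.42, while IRS2 itself was at 0.90 and 0.32.

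**Figure D3:**
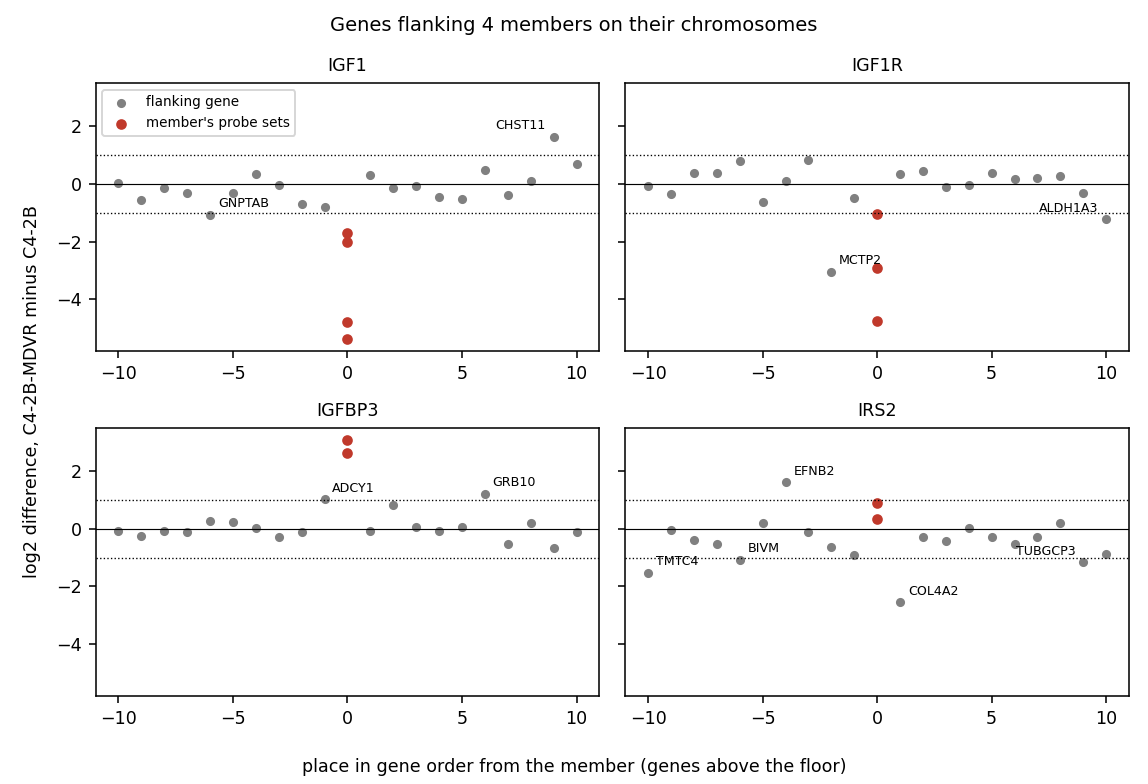
Log2 difference, C4-2B-MDVR minus C4-2B, of the 20 genes above the floor nearest to IGF1, IGF1R, IGFBP3 and IRS2 (grey, by place in gene order) and of the member's own probe sets above the floor (red, at 0), with dotted lines at 2-fold. Most flanking genes lie within 2-fold in each panel, while the probe sets of IGF1, IGF1R and IGFBP3 lie beyond it.

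Other genes of the pathway were taken from 9 lists by role, with the probe set of highest mean for each gene. Of 114 listed genes 103 had a probe set of their own and 85 were above the floor. Of these 9 were 2-fold or more higher (10.6%) and 7 were 2-fold or more lower (8.24%), beside 3.17% and 3.5% over all named genes above the floor. The lists were chosen with earlier results of these data known, so these shares describe the lists and are no test. The near-identical relaxins RLN1 and RLN2 both count among the 9. The median of the 85 was 0.003, beside 0.04 over all named genes above the floor, and the medians of the 9 lists ran from −0.63 to 1.62.

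Among hormones of the insulin superfamily, 3 genes were above the floor, and 2 of them, the relaxins RLN1 and RLN2, were 2-fold or more higher. RLN2 had an intensity of 174 in C4-2B-MDVR, against 56.4 in C4-2B (1.62). RLN1 had 101 in C4-2B-MDVR, against 27.8 in C4-2B (1.87), at least 2.41-fold higher. The 2 genes are near-identical, so their separate values are uncertain. The insulin gene INS was under the floor on both arrays.

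Of 9 other binding proteins, carriers and proteases above the floor, 1 was higher and 1 lower. STC1, a stanniocalcin that inhibits the IGFBP-cleaving protease PAPPA, had 143 in C4-2B-MDVR, against 69.9 in C4-2B (1.03), and a second probe set gave 0.99, at least 1.33-fold by bound. None of the 11 probe sets of PAPPA itself was above the floor. KLK2, a kallikrein protease that can cleave IGFBPs, was at −2.10. Of its 4 probe sets 3 were above the floor, from −2.37 to −0.88. IGFBP6, which prefers IGF2, had 56.7 in C4-2B-MDVR and 31.1 in C4-2B (0.87), at least 1.35-fold by bound. IGFBP1 and IGFBP4 were under the floor. The mRNA-binding protein IGF2BP3 was at 0.76 and IGF2BP1 at 0.24, both within 2-fold.

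Of 13 other receptors, substrates and adaptors above the floor, 3 were higher and 0 lower, with a median of 0.22. GRB10, an adaptor that binds the activated insulin and IGF1 receptors and restrains them, had an intensity of 2982 in C4-2B-MDVR, against 1299.9 in C4-2B (1.20). All 4 of its probe sets were higher, from 1.09 to 1.74. GRB14, its relative with the same role at INSR, had 126 in C4-2B-MDVR, against 55.8 in C4-2B (1.18). DOK4, a substrate of the insulin receptor, was at 1.25, but its other probe sets were lower than that, down to 0.48.

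In the PI3 kinase and AKT list, with 11 genes above the floor, 1 was 2-fold or more higher and 0 lower. PIK3R1, the main regulatory subunit, had 271 in C4-2B-MDVR, against 120.2 in C4-2B (1.17), with its other probe set at 0.83. PIK3R3, another regulatory subunit, was at 0.98 and the kinase GSK3B at 0.49, both within 2-fold. AKT2 was at −0.16, and its 5 probe sets above the floor ran from −1.09 to 0.27. In the mTOR list 1 of 15 was higher and 1 lower. DEPTOR, a protein that binds and inhibits mTOR, had 494 in C4-2B-MDVR, against 226 in C4-2B (1.12), with 1 of its 2 probe sets above the floor. TSC2, a brake on mTOR complex 1, had 289.5 in C4-2B-MDVR, against 842 in C4-2B (−1.54), with 1 of its 2 probe sets above the floor. RPS6KB1, the S6 kinase, was at −0.98, with probe sets from −0.98 to −0.02. Some genes counted as within 2-fold had another probe set beyond it. EIF4E was at −0.75, and its 4 probe sets above the floor ran from −1.59 to −0.75. MAPKAP1 was at −0.30, and its 4 ran from −1.11 to 0.35.

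Of 12 negative regulators 3 were 2-fold or more lower and 0 higher, with a median of −0.27. INPP4B, a phosphatase that removes a lipid product of PI3 kinase, had 8.80 in C4-2B-MDVR, against 97.5 in C4-2B (−3.47), at least 2.24-fold lower, and 1 of its 4 probe sets was above the floor. SOCS2, an inhibitor of growth hormone signalling and thereby of IGF1 production in mice, had 58.9 in C4-2B-MDVR, against 386 in C4-2B (−2.71), with a second probe set at −2.50 and at least 1.89-fold lower by bound. ENPP1, an inhibitor of the insulin receptor, had 59.6 in C4-2B-MDVR, against 122 in C4-2B (−1.04). Its other 2 probe sets above the floor, at −1.15 and −1.09, were at least 1.02-fold and 1.52-fold lower by bound. By contrast, the receptor-binding inhibitors GRB10 and GRB14 of the adaptor list were higher, so inhibitors of the pathway differed in both directions.

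Among FOXO factors and genes known to be induced by FOXO, 1 of 12 above the floor was 2-fold or more higher and 0 lower, with a median of 0.49. GADD45A, a growth arrest gene that other pathways also induce, had 452 in C4-2B-MDVR, against 149 in C4-2B (1.60). TXNIP, which limits glucose uptake, was at 0.94, and its 3 probe sets reached 1.39. SESN3, a sestrin that restrains mTOR complex 1, was at 0.89, and its 6 probe sets above the floor reached 2.42. FOXO1, on the same chromosome arm as IRS2, was at −0.16. Of 8 insulin-linked glucose and lipid genes above the floor, 2 were lower and 0 higher, with a median of −0.63. These were SREBF1 (−1.34), with another probe set at −0.18, and FASN (−1.19), whose other probe set went the opposite way at 0.38. The hexokinase HK2 was at −0.86, with its 3 probe sets from −0.86 to −0.16.

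**Figure D4:**
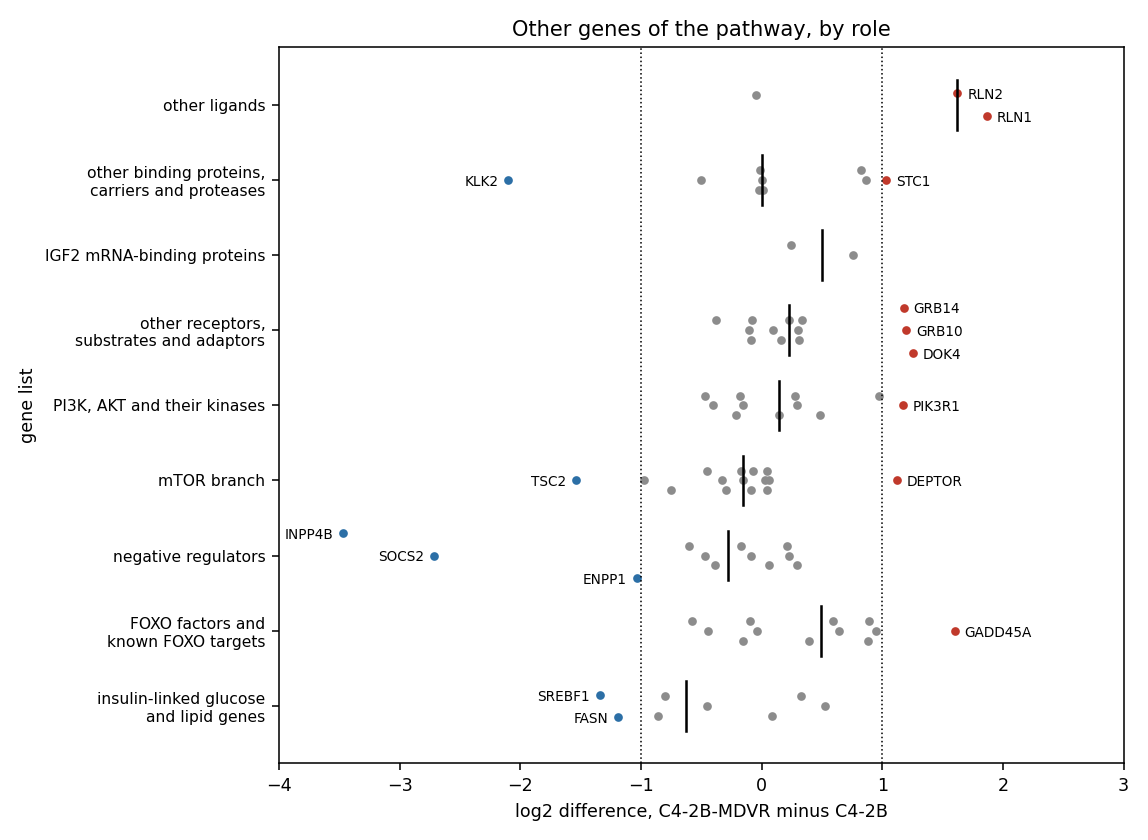
Log2 difference, C4-2B-MDVR minus C4-2B, of the 85 listed pathway genes above the floor, 1 point per gene, by role, with the list median as a black bar and dotted lines at 2-fold. Genes 2-fold or more higher (red) or lower (blue) are named, and both colours occur in the binding protein and mTOR lists.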

How the data were processed

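Total RNA of untreated C4-2B-MDVR and C4-2B cells, 1 sample each, was extracted with Trizol, amplified and biotinylated for Affymetrix arrays (per the labels' protocols and the design text). The values the authors deposited are intensity values on a linear scale. How they were normalized and summarized is not given in the sources used here. The log2 of each deposited value was taken with no further scaling. Names came from the platform annotation as supplied, dated 2016, in which 41097 of 54675 carry 1 symbol, 1801 several and 11777 none. By Entrez identifier 41043 matched NCBI RefSeq (GRCh38.p14), with 0 symbols changed. The supplied symbols were thus already those of RefSeq, and the date does not give their age.

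The floor was each array's median and calls were 2-fold measured differences. With 1 array per line no test is possible, and precision is limited by the number of arrays. Members and gene lists were chosen with earlier results of these data known. Named list genes were those beyond 2-fold and the up to 3 per list with the largest absolute difference, and others were named after their values were seen. Some listed genes were not analysed here. The counting steps were run on simulated data, with differences put only on bright probe sets and noise smaller than the spread of differences here. The floor and the bounds were thus not tested. Python 3.11.15, numpy 2.4.6, pandas 2.3.3, statsmodels 0.14.6 (loess, span 0.3) and matplotlib 3.10.9 were used.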

Additional observations from a re-analysis of the deposited data

How the results depend on the processing

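Median centring, quantile normalization and loess kept all 9 member probe sets beyond 2-fold, and setting dim values to the floor kept 8, 2 higher and 6 lower. Floors at the 25th or 75th percentile or none gave 2 higher and 6 to 8 lower, with member medians of −0.06, −0.43 and −0.06. At 1.5-fold 4 member probe sets were higher. Without probe sets whose names mark shared sequence 0 were higher, since both of IGFBP3 are left out, and the median was −1.04. With 1 probe set a gene, or the mean over a gene's probe sets, 1 gene was higher and 2 lower, which follows from counting genes. The member median was then 0.13 and −0.06, so its sign changed with 1 probe set a gene. Of the pathway genes, 18 were higher and 12 lower at 1.5-fold, 3 and 3 at 3-fold, 5 were higher with the floor at the 75th percentile, and 3 were lower when a gene's probe sets were averaged, where the cause was not tested. Including the jointly annotated IGF2 probe sets, an alternative chosen after seeing the data, changed no count. No paired analysis was possible because each line has 1 array. The 12 member probe sets under the floor on both arrays were left out of the main calls. Of them, IGF1R 203628_at was at −1.43, with 13.1 in C4-2B-MDVR and 35.4 in C4-2B, and counted as lower when no floor was set. Values this dim were not read as a change.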
